A study of Homo sapiens with 8 samples.

Results

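A second antibody against the transcription factor Sp1 gave 719 promoter peaks that had no counterpart in the peak list of the first antibody. These antibody 2-only promoter peaks were chosen by the peak calls of both antibodies: the interval shared no base with any antibody 1 peak, and the summit, the position of highest signal, lay within 1 kb of an annotated transcript start on chromosomes 1 to 22 or X. They made up 719 of the 1644 peaks called with antibody 2 alone on these chromosomes, of 5882 antibody 2 peaks there, of 5973 in the whole antibody 2 list and of 93632 peaks in the 5 lists of the series. Because the peak calls of both Sp1 libraries chose them, their antibody 2 enrichment and their lack of an antibody 1 peak are given as descriptions.

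The study used chromatin immunoprecipitation and sequencing (ChIP-seq) in U-2 OS, a human osteosarcoma cell line, fixed with 1% formaldehyde for 6 min. The libraries of anti-SP1 antibody 1, anti-SP1 antibody 2 and normal rabbit IgG, 1 each, came from cells with an endogenous knock-in V5-Halo-SP1 allele, whose titles nevertheless call the line parental. The 2 CTCF replicates came from clone C32, an endogenous knock-in FLAG-Halo-CTCF line that is a single clone, while the design text speaks of wild type cells. No untagged U-2 OS library was analysed here, so in any comparison of Sp1 with CTCF the target and the cell line cannot be told apart.

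Sp1 is a zinc finger activator that binds GC boxes, short G-rich words around GGGCGG, and is best known from promoters in CpG islands. Such promoters also carry sites for ETS factors, which read the word CCGGAA, and for NF-Y, which binds CCAAT. C/EBP factors are leucine zipper proteins that bind TTGCGCAA or TTGCACAA, and C/EBP-ATF pairs, among them ATF4 of the amino acid response, bind TGATGCAA.

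Windows of 101 bases centred on the summit were searched for such words on both strands, and the peaks of highest fold that carried each main word show what these promoters look like. They are printed 5′ to 3′ on the plus strand of hg38, in lower case with each match to the named word, or to its reverse complement, in capitals, and cut to 30 bases around the word where the window held over 30 bases of annotated UTR. The ETS core is shown for VPS25, a subunit of the ESCRT-II sorting complex (chr17:42773359-42773459), and for TEFM, the mitochondrial transcription elongation factor (chr17:30906214-30906314).
VPS25: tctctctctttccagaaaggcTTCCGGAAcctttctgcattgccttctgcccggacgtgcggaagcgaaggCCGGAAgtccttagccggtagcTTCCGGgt
TEFM: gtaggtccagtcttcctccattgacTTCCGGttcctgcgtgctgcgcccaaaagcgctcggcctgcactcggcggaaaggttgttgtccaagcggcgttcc
The C/EBP word is shown for NFE2L2, the regulator of the oxidative stress response (chr2:177263492-177263521), and for TFEB, a regulator of lysosome genes (chr6:41723614-41723643).
NFE2L2: gaaaatagcaaTTGCGCAAcagatcaacag
TFEB: tggagaggaagTTGCACAAtcccctgggag
The C/EBP-ATF word is shown for TSEN15, a subunit of the tRNA splicing endonuclease (chr1:184051603-184051632), and next to the pseudogene COX6CP5 (chr11:7977406-7977506).
TSEN15: gaaggaggggcTGATGCAActttcctccca
COX6CP5: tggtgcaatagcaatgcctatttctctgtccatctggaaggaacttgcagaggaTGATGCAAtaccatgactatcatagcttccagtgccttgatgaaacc
The GC box is shown for METTL15, a methyltransferase of mitochondrial ribosomal RNA (chr11:28110245-28110274), and for the WEE2-AS1 start near that of SSBP1, the mitochondrial single-stranded DNA-binding protein (chr7:141738213-141738313).
METTL15: cctcagttgcttGGGCGGacgtggacccaa
SSBP1: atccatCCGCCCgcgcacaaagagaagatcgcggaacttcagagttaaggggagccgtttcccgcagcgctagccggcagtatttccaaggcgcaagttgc
The word of ZNF143, a zinc finger factor of promoters, is shown for IFTAP, a protein associated with intraflagellar transport (chr11:36594421-36594450), and for AP2S1, a subunit of the clathrin adaptor AP-2 (chr19:46850968-46851068).
IFTAP: ggatttctgggAATTGTAGTccttttccgt
AP2S1: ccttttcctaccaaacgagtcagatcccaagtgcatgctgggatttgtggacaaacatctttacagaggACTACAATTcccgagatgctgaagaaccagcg
Peaks of the highest fold did not always hold any of the searched words, and 3 such windows are those of CDK5RAP1, which modifies mitochondrial tRNAs (chr20:33401535-33401635), of the non-coding RNA gene JPX (chrX:73944215-73944315) and of WDR11 (chr10:120851200-120851300).
CDK5RAP1: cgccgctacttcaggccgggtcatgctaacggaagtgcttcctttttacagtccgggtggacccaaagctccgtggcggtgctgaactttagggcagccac
JPX: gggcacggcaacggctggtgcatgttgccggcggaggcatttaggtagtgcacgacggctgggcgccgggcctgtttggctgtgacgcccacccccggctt
WDR11: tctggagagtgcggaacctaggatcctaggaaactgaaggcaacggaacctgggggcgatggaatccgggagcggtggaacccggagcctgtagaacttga
The 3 windows without a searched word differ in composition, with a GC content of 59.4% at CDK5RAP1, 69.3% at JPX and 58.4% at WDR11. Those of CDK5RAP1 and WDR11 do hold CGGAA, a shorter part of the ETS core that was not among the searched words.

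Fold enrichment, the signal at the summit over background as the peak caller wrote it, ran from 1.69 to 126 over the 719 peaks with a median of 6.65. It was 6.88 at the median in the 3770 promoter peaks called with both antibodies. The upper end held many strong peaks: 192 of the 719 (26.7%, 95% Wilson interval 23.6 to 30.1%) reached 10-fold, 90 (12.5%, 10.3 to 15.1%) reached 20-fold and 31 (4.31%, 3.05 to 6.05%) reached 50-fold. Among the shared promoter peaks 9.31% (8.42 to 10.3%) reached 20-fold and 5.44% (4.76 to 6.21%) reached 50-fold. In the antibody 1 list, promoter peaks were called from a fold of 1.85 upwards with a median of 8.21. The lists give no antibody 1 value outside its peaks, and a missing peak is not a signal of zero. The peaks were narrower than the shared ones, with a median width of 414 bp against 535 bp.

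**Figure D1:**
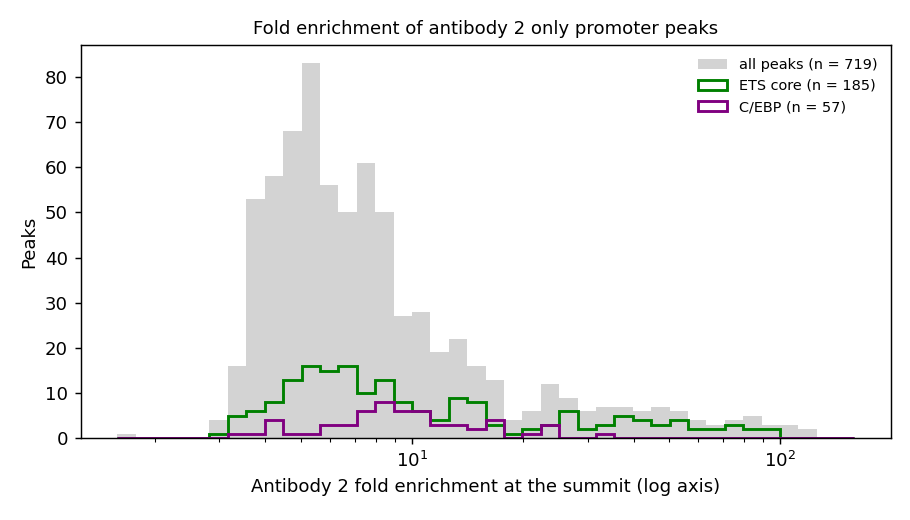
Number of antibody 2-only promoter peaks (vertical axis) by antibody 2 fold enrichment at the summit (horizontal log axis, no unit), for all 719 peaks (grey), those with the ETS core (green, 185) and those with the C/EBP word (purple, 57). The grey distribution has its bulk near the median of 6.65 and a tail to 126, and the C/EBP peaks end at 34.4 while ETS peaks reach 94.5.

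The 20 peaks of highest fold all exceeded 64-fold and lay within 152 bp of a start, and 15 of them were within 1 kb of the canonical start of a protein-coding gene. The strongest, at 126-fold, stood at CDK5RAP1 on chromosome 20, on the start of a non-coding transcript. It was followed by a transcript of chromosome 11 without a gene symbol at 114-fold, by JPX at 109-fold, by the divergent transcript of WDR11 at 108-fold and by METTL15 at 101-fold. The METTL15 peak sat in an annotated UTR, at a start that is not the canonical one, and an antibody 1 peak lay 1248 bp away. Among the others were IFTAP (95.4-fold), VPS25 (94.5-fold), TEFM (90.7-fold) and SSBP1 with WEE2-AS1 (85.2-fold). AQR, a helicase of the spliceosome, followed at 83.2-fold, MTERF4, needed for assembly of the mitochondrial ribosome, at 82.9-fold, and KRR1, a factor of small ribosomal subunit assembly, at 79.8-fold. The remaining 8 were RAD54L2, a chromatin remodeller of the SNF2 family (79.5-fold), GTF2H2B, a pseudogene copy of a TFIIH subunit gene (79.1-fold), COMMD2 (74.0-fold), BRF2, a factor that recruits RNA polymerase III (71.2-fold), a lncRNA of chromosome 14 (70.9-fold), KLHL20, a ubiquitin ligase adaptor (66.8-fold), LAS1L, which acts in ribosomal RNA processing (65.0-fold), and HDAC8, a histone deacetylase (64.4-fold). GTF2H2B belongs to a family of near-identical copies, so the reads of its peak could come from another copy. Of these 20 windows 9 held the ETS core, 2 the GC box, 2 the NF-Y word and 1 the ZNF143 word, none held the C/EBP word, and 6 held none of the searched words.

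The peaks closest to the limits of the selection were mostly of low to middle fold. The smallest gaps to an antibody 1 peak were 24 bp at YWHAZ (4.44-fold), 28 bp at HLA-F (4.55-fold) and 39 bp at ZNF497-AS1 (5.57-fold). On the other side, the smallest overlaps that made a promoter peak shared were 9 bp at BOLA1 (4.14-fold), 19 bp at TXNL1 (6.00-fold) and 29 bp at a lncRNA of chromosome 14 (4.56-fold). The summits farthest from a start were 949 bp away at CLIP4 (5.36-fold), 950 bp at a lncRNA of chromosome 11 (4.87-fold) and 955 bp at a signal recognition particle RNA copy on chromosome 17 (10.9-fold), and the nearest left outside were 1013 bp from CLECL1P (9.13-fold) and 1030 bp from VGLL4 (7.84-fold) and from MC3R (20.5-fold). The lowest −log10 q values, the caller's significance after correction, were 1.34 at MCU (3.05-fold), 1.44 at HECTD2 (2.91-fold) and 1.56 at MISP (3.42-fold).

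Most of the 719 promoters were far from any antibody 1 peak. The gap to the nearest one had a median of 56428 bp, was under 100 bp for 5 peaks, under 1 kb for 57 (7.93%, 6.17 to 10.1%) and at least 100 kb for 266 (37.0%, 33.5 to 40.6%). An antibody 1 peak lay within 1 kb of the summit for 54 (7.51%, 5.80 to 9.67%). Antibody 1-only promoter peaks lay farther from the other antibody, whose list is shorter (5973 against 8706 peaks). Their median gap was 76014 bp, and 43.2% (41.6 to 44.9%) had a gap of at least 100 kb. An antibody 2 peak lay within 1 kb of 2.65% (2.17 to 3.24%) of their summits. By gene, 706 of 19962 protein-coding genes (3.54%) had a start within 1 kb of an antibody 2-only promoter summit. More than 1 such peak was found for 6 gene names. Of the 706 genes, 121 (17.1%) also had an antibody 1 peak within 1 kb of one of their starts. A shared peak was present in 65 (9.21%) and an antibody 1-only peak in 67 (9.49%). Over all protein-coding genes these shares were higher, at 21.0% and 17.8%. The selection had removed every peak that overlapped an antibody 1 peak, so whether the lower shares go beyond this was not tested.

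A smaller share of these promoters than of those called with both antibodies was the principal start of a protein-coding gene. A canonical protein-coding start lay within 1 kb for 504 of the 719 (70.1%, 66.7 to 73.3%), against 84.2% (83.0 to 85.3%) of the shared and 79.1% (77.7 to 80.4%) of the 3506 antibody 1-only promoter peaks. The nearest start belonged to a protein-coding gene for 545, to a lncRNA for 142 (19.7%, 17.0 to 22.8%, against 15.4%, 14.3 to 16.6%, of shared peaks) and to another class for 32. Divergent pairs of protein-coding genes, which share one promoter region, accounted for 46 (6.40%, 4.83 to 8.43%), against 12.4% (11.3 to 13.4%) of the shared and 5.82% (5.09 to 6.64%) of the antibody 1-only promoter peaks. These intervals cover counting error only, and with 1 library for each antibody no difference between the antibodies has a replicate check.

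Summits sat close to the start, with a smaller share upstream of it than in shared peaks. The median position was 14 bp upstream of the nearest start, 291 summits (40.5%, 36.9 to 44.1%) lay within 50 bp, and 83 (11.5%, 9.41 to 14.1%) lay over 500 bp away, against 3.82% (3.25 to 4.48%) of shared summits. Upstream summits numbered 431 (59.9%, 56.3 to 63.5%), against 70.1% (68.6 to 71.5%) in shared peaks and 71.1% (69.6 to 72.6%) in antibody 1-only peaks. By annotation 216 summits were in introns, 193 in UTRs, 184 between genes, 106 in non-coding exons and 20 in coding exons.

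About as many of these promoters had CpG island composition as lacked it. Within 150 bases of the summit the median GC content was 60.5% and the median ratio of observed to expected CpG was 0.74, against 63.8% and 0.80 in the shared peaks. Taking a GC content of at least 55% with a CpG ratio of at least 0.65 as CpG rich, 375 of the 719 were CpG rich (52.2%, 48.5 to 55.8%). The share was 74.4% (73.0 to 75.8%) in shared and 73.5% (72.0 to 74.9%) in antibody 1-only promoter peaks, 63.3% (62.7 to 64.0%) over the 19895 canonical protein-coding starts, and 5.30% (4.03 to 6.93%) in the 925 antibody 2-only peaks away from promoters. CpG rich composition and a canonical start went together in 324 peaks, 180 had the canonical start alone, 51 the composition alone and 164 neither. The median fold of these 4 sets was 6.67, 6.16, 7.20 and 7.34 in the same order.

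**Figure D2:**
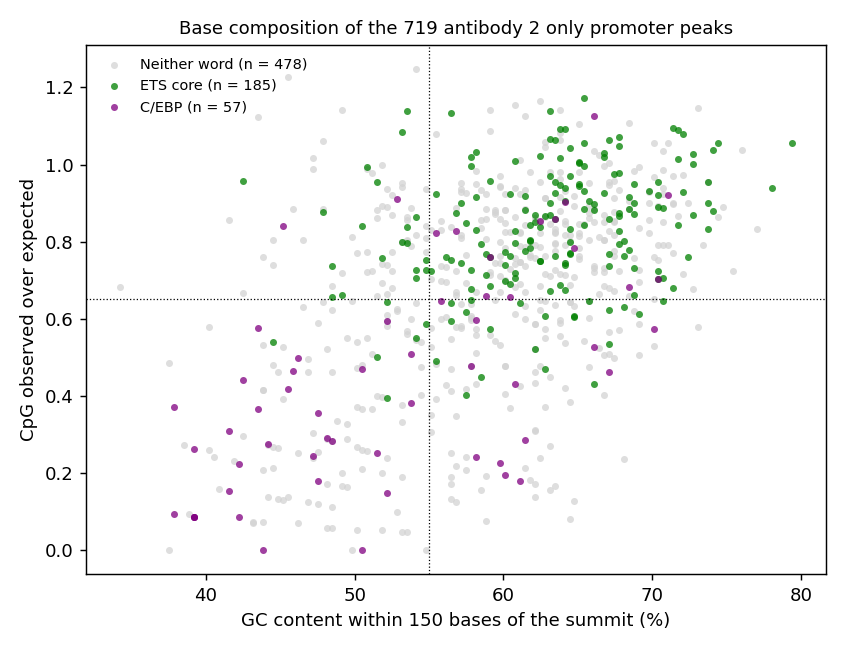
GC content (horizontal axis, %) against the ratio of observed to expected CpG (vertical axis, no unit) within 150 bases of each of the 719 summits, coloured by the word within 50 bp of the summit, with 1 window holding both. Dotted lines mark 55% and 0.65. Windows with the ETS core gather in the upper right field, where 139 of 185 lie, and those with the C/EBP word mostly lie outside it, where 44 of 57 are.

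The GC box, the word Sp1 itself is known to bind, had a smaller share at these summits than at other promoters. It was found in 143 of 719 windows (19.9%, 17.1 to 23.0%), against 48.4% (46.8 to 50.0%) of shared windows, 52.7% (51.0 to 54.3%) of antibody 1-only promoter windows and 35.7% (35.1 to 36.4%) of windows centred on all canonical starts. The longer GC box GGGGCGGGG was found in 21 windows (2.92%, 1.92 to 4.42%), against 15.6% (14.5 to 16.8%) of shared windows and 9.11% of canonical starts. Restricting both sets to CpG rich windows, the GC box was in 26.1% of antibody 2-only and 51.4% of shared windows. In windows 500 bp to the sides the share was 12.0%, so the rise at the summit was smaller here than in the shared peaks, where 48.4% stood against 17.2% to the sides. In steps of 20 bp its share was 4.17% at the summit, reached 5.42% within 40 bp of it and averaged 3.32% from 300 to 500 bp away (2.09 to 4.31% over 22 steps), whereas in shared peaks it rose to 16.5% at the summit from an average of 5.31%, and in antibody 1-only peaks to 18.7% from 5.50%. No match says only that these letters were not in the window.

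The ETS core CCGGAA was the most frequent of the searched words. It was found in 185 windows (25.7%, 22.7 to 29.0%), against 2.78% of equal windows 500 bp to the sides, 12.3% (11.9 to 12.8%) of canonical starts, 21.3% (20.0 to 22.6%) of shared and 9.70% (8.76 to 10.7%) of antibody 1-only promoter windows. The longer form ACTTCCGG, which contains the core, was in 69 windows (9.60%, 7.65 to 12.0%), against 5.92% in shared peaks and 3.93% of canonical starts. More than 1 copy of the core stood in 54 windows, with 45 holding 2, 8 holding 3 and 1 holding 4, overlapping matches counted apart. Unlike a word that sits under the summit, the core was spread around it. Over the 258 copies centred within 50 bp of the summit, some reaching past the window, the median distance was 26.5 bp. Under the same limit it was 25.5 bp for the GC box and 25.0 bp for NF-Y. The share of the core was 5.01% in the 20 bp step at the summit, up to 8.48% within 40 bp of it and 0.70% on average beyond 300 bp. ETS windows without a GC box or C/EBP word numbered 150, of which 82.0% had a canonical start, 71.3% were CpG rich and 79.3% had the summit within 100 bp of a start.

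The share of ETS windows was smaller among weaker peaks, here and in the shared promoter peaks. With the 719 peaks cut by fold into 4 sets of equal size, it was, from the strongest to the weakest set, 38.9% (32.1 to 46.2%), 25.7% (19.9 to 32.6%), 23.3% (17.8 to 30.0%) and 15.0% (10.5 to 20.9%). The corresponding shared sets gave 34.6% (31.6 to 37.7%), 20.2% (17.8 to 22.9%), 15.7% (13.5 to 18.1%) and 14.6% (12.5 to 17.0%). The intervals of antibody 2-only and shared peaks overlapped in each of the 4 sets. Of the 50 strongest antibody 2-only promoter peaks 27 held the core, and of the 50 strongest shared ones 33. The GC box share was lower in the stronger sets of antibody 2-only peaks, at 14.4% (10.1 to 20.3%) and 15.6%. It was 25.6% and 23.9% (18.2 to 30.6%) in the weaker ones. The shared sets gave 47.2%, 56.5%, 47.6% and 42.2%, from strongest to weakest. Among the 50 strongest the share was 20.0% (11.2 to 33.0%) in antibody 2-only and 26.0% (15.9 to 39.6%) in shared peaks.

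**Figure D3:**
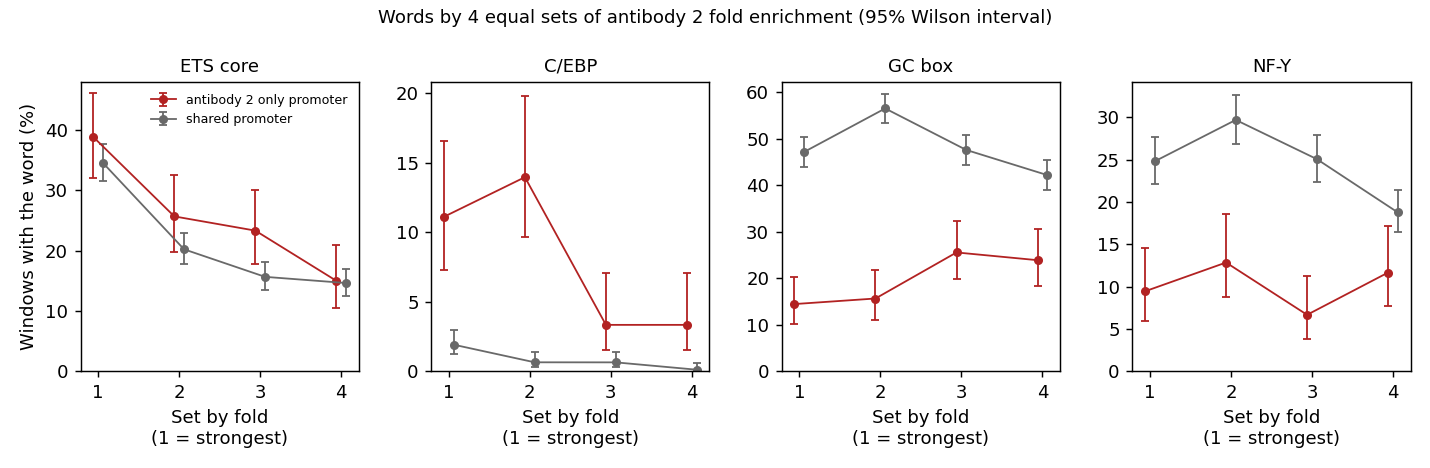
Share of windows with each of 4 words (vertical axes, %, each with its own scale from 0) by 4 sets of equal size ordered by antibody 2 fold enrichment (horizontal axes, 1 the strongest), for antibody 2-only (red) and shared (grey) promoter peaks, with 95% Wilson intervals. The ETS core falls from 38.9% to 15.0% in red alongside the grey line, the C/EBP word is above grey in all 4 sets, and the GC box and NF-Y words are below it.

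The C/EBP word marked a smaller set of different promoters. It was found in 57 windows (7.93%, 6.17 to 10.1%), against 0.82% (0.58 to 1.16%) of shared windows, 0.14% (0.06 to 0.33%) of antibody 1-only promoter windows, 0.18% (0.13 to 0.25%) of canonical starts and 0.21% of the windows to the sides, and it was in 24.6% of the antibody 2-only peaks away from promoters. The word lay under the summit: over the 60 copies centred within 50 bp of it the median distance was 6.5 bp and 66.7% were within 10 bp. The share of the word was 5.56% in the 20 bp step at the summit and 0.07% on average beyond 300 bp. Only 20 of the 57 had a canonical protein-coding start within 1 kb, and 13 were CpG rich. The word was in 17.2% (12.8 to 22.8%) of the 215 peaks without a canonical start and in 3.97% (2.58 to 6.05%) of the 504 with one. Without the single peak that also held the ETS core, their median distance from a start was 220.5 bp, against 38 bp for the 150 ETS windows.

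The peaks with a C/EBP word were of middle to high fold. Their median was 8.94 against 6.65 over all 719, and the word was in 11.1% (7.31 to 16.5%) and 14.0% (9.64 to 19.8%) of the peaks in the stronger 2 of the 4 sets and in 3.33% (1.54 to 7.08%) of each weaker set, but in 0 of the strongest 50 (interval up to 7.13%). NFE2L2 led with 34.4-fold, its summit 3 bp downstream of a start that is not canonical, and TFEB followed with 24.4-fold, 104 bp downstream of such a start. The NFE2L2 peak lay 977 bp from an antibody 1 peak and overlapped CTCF peaks of 112-fold in replicate 1 and 46.1-fold in replicate 2. Further genes, picked out after their values were seen, were NFKBIA, the inhibitor of NF-κB (20.5-fold, 24 bp downstream of its start), and SMAD6, an inhibitory SMAD (14.0-fold, 39 bp upstream). Both of these stood at canonical starts.

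The related C/EBP-ATF word TGATGCAA was found in 24 windows (3.34%, 2.25 to 4.92%), against 0.40% (0.24 to 0.66%) of shared windows, 0.11% (0.04 to 0.29%) of antibody 1-only promoter windows and 0.18% (0.13 to 0.25%) of canonical starts. It was in 9.30% (7.59 to 11.3%) of the antibody 2-only distal peaks. The strongest promoter peaks with it were TSEN15 (24.0-fold) and the COX6CP5 pseudogene (22.2-fold). Among genes of the amino acid response, a stress programme driven by ATF4, it was present at SLC7A11, the cystine transporter (9.94-fold, summit 88 bp upstream), and at TRIB3, a pseudokinase (7.61-fold, 218 bp downstream). It also stood at IARS1, the isoleucyl-tRNA synthetase (8.89-fold, 2 bp upstream).

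NF-Y, which often accompanies Sp1 at promoters, showed no rise at these summits. Its word CCAAT was in 73 windows (10.2%, 8.15 to 12.6%), against 12.9% of the windows to the sides and 9.35% (8.95 to 9.76%) of canonical starts, while it was in 24.6% (23.2 to 26.0%) of shared and 17.9% (16.7 to 19.2%) of antibody 1-only promoter windows. The windows of canonical starts are centred on the start and not on a summit, so a word farther upstream falls outside them. The ZNF143 word ACTACAATT was in 9 windows (1.25%, 0.66 to 2.36%) in 0.27% (0.14 to 0.49%) of shared windows and in 0.06% of canonical starts. Besides IFTAP at 95.4-fold, where it stood in the window printed above, these peaks were weak, with AP2S1 next at 6.16-fold. The AP-1 word TGANTCA was in 20 windows (2.78%, 1.81 to 4.26%) against 0.98% (0.71 to 1.35%) of shared windows, 1.39% of the windows to the sides and 299 of the 19895 canonical starts, and it was in 10.1% (8.28 to 12.2%) of the antibody 2-only distal peaks. The word TCGCGAGA was in 1 window of the 719 and in 3.37% (2.82 to 4.02%) of antibody 1-only promoter windows and 0.69% of canonical starts. The other words searched were GGGTGTG for KLF factors, GCGCATGC for NRF1, AAGATGGCG for YY1, TGACGTCA for CREB, CACGTG for E-box factors, TATAAA for the TATA box, GGAATG for TEAD, TGTGGT for RUNX factors, the CTCF core and the wider C/EBP form TTGCNNAA, which contains the C/EBP words. Of all 719 windows 224 (31.2%) held none of the searched words.

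**Figure D4:**
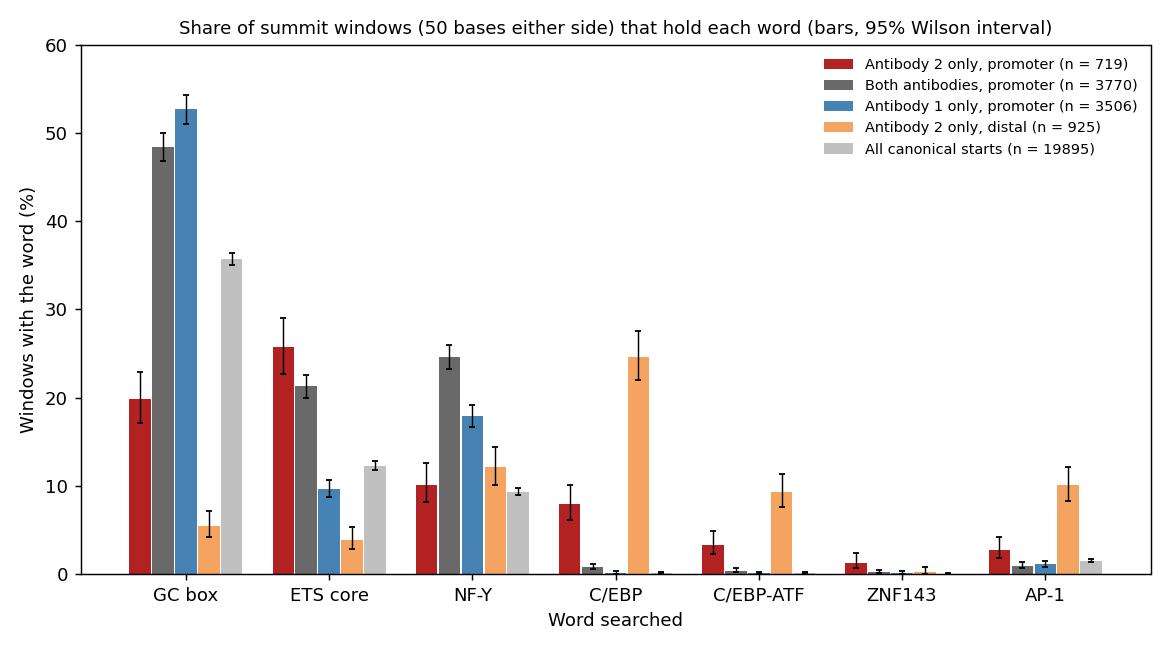
Share of 101-base summit windows that hold each of 7 words (vertical axis, %) in antibody 2-only promoter peaks (red), shared promoter peaks (dark grey), antibody 1-only promoter peaks (blue), antibody 2-only distal peaks (orange) and in windows centred on all canonical protein-coding starts (light grey), with 95% Wilson intervals. The red bar is below the dark grey one for the GC box (19.9% against 48.4%) and NF-Y, and above it for the ETS core and the C/EBP words.

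**Figure D5:**
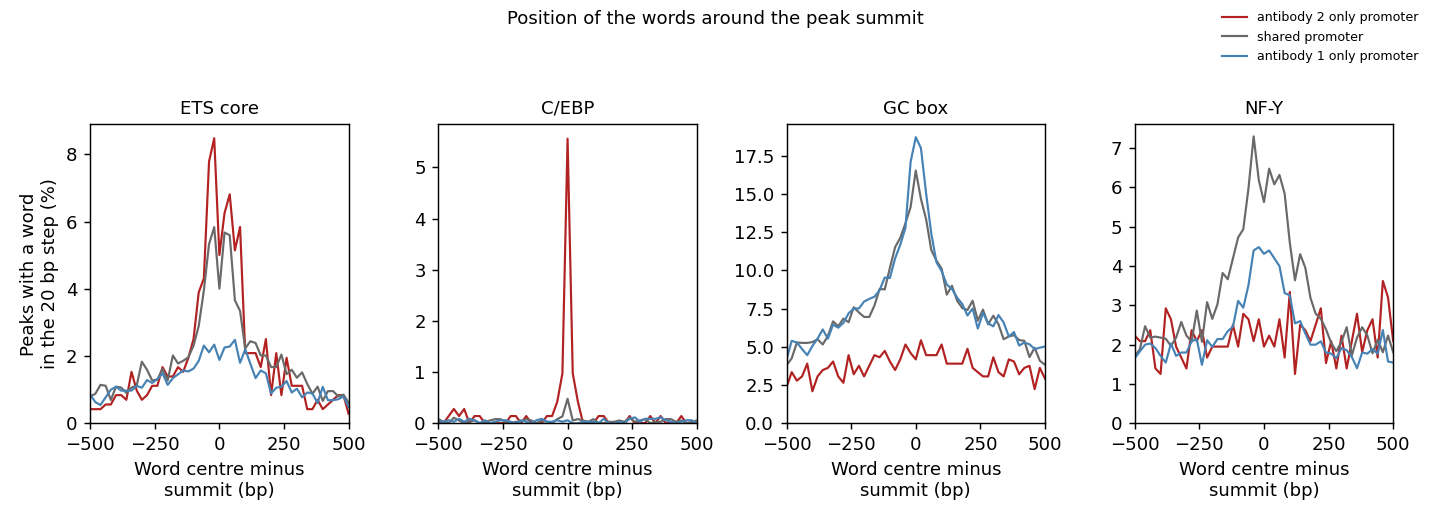
Share of peaks with a word centred in each 20 bp step (vertical axes, %, each with its own scale from 0) by distance from the summit (horizontal axes, bp), for antibody 2-only (red), shared (grey) and antibody 1-only (blue) promoter peaks. In red the ETS core forms a broad rise up to 8.48%, the C/EBP word a narrow spike of 5.56%, and the GC box stays between 2.09 and 5.42%.

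Words of 8 bases were also picked without reference to any factor, by their excess over shared peaks on the odd-numbered chromosomes, and then counted on the even-numbered ones and X. Of the 5 words that were kept, ATGATGCA, which overlaps the C/EBP-ATF word, was found in 7 of 387 windows on the odd chromosomes. On the others it was found in 5 of 332 antibody 2-only windows (1.51%), in 3 of 1647 shared windows (0.18%) and in 0 of 1575 antibody 1-only windows. The other 4 words did not recur in this way. TGCAGTAA went from 7 windows to 0 and CACACTCA from 6 to 0, AGCCACAG from 8 to 2, with 0.60% against 0.55% in shared windows, and GGATTTTA from 6 to 1.

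CTCF, the insulator protein measured in the other cell line, overlapped a share of the antibody 2-only promoter peaks whose interval overlapped those of the other promoter peaks. Peaks of both CTCF replicates overlapped 135 of the 719 (18.8%, 16.1 to 21.8%), 18.9% (17.6 to 20.1%) of shared and 17.7% (16.5 to 19.0%) of antibody 1-only promoter peaks, and 9.08% (7.39 to 11.1%) of antibody 2-only distal peaks. CTCF replicate 1 alone gave 26.7% and replicate 2 19.5%. The median CTCF fold at the 135 was 50.6 in replicate 1 and 26.7 in replicate 2, and in 47 (6.54%, 4.95 to 8.58%) the summits of both replicates lay within 100 bp of the Sp1 summit. Normal rabbit IgG gave 106 peaks, and 1 of them overlapped an antibody 2-only promoter peak, near a lncRNA on chromosome 19, with 15.6-fold for IgG and 3.44-fold for antibody 2.

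The share of antibody 2 promoter peaks that had no antibody 1 peak was 16.0% (15.0 to 17.1%) over all chromosomes. It was highest on chromosome 13, with 13 of 46 (28.3%, 17.3 to 42.5%), and lowest on chromosome 21, with 2 of 39 (5.13%, 1.42 to 16.9%). Chromosome 19, which is rich in genes, had 53 of 451 (11.8%, 9.10 to 15.1%), chromosome 5 had 46 of 189 (24.3%, 18.8 to 30.9%) and X had 24 of 97 (24.7%, 17.2 to 34.2%).

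Gene groups were described by how many of their genes had such a peak within 1 kb of a start, even where another gene's start was nearer. Over all 19962 protein-coding genes this was 3.54%, while 21.0% had a shared peak and 17.8% an antibody 1-only promoter peak. Of 50 genes with a proteasome symbol 7 had an antibody 2-only promoter peak (14.0%, median 7.78-fold), 19 a shared and 16 an antibody 1-only one. The 7 were the 20S core subunits PSMA6 (7.78-fold) and PSMB4 (10.8-fold), the 19S subunits PSMC2 (34.4-fold) and PSMD6 (7.31-fold), the activator PSME3 (4.87-fold), the assembly chaperone PSMG3 (46.2-fold) and the interacting protein PSME3IP1 (4.33-fold). The windows of PSMA6, PSMC2 and PSME3 held the ETS core. Nearest to the summits listed for PSME3, PSMG3 and PSME3IP1 were starts of BECN1, PSMG3-AS1 and RSPRY1. PSME3 and PSME3IP1 also had a shared peak at another place within 1 kb of a start.

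Enzymes that charge tRNAs with amino acids gave 5 of 37 (13.5%, median 7.20-fold). A shared peak was found for 18 (48.6%) and an antibody 1-only promoter peak for 11 (29.7%), so these shares were also above those over all protein-coding genes. RARS1, for arginine, reached 15.5-fold with an ETS core in its window, IARS1 8.89-fold with the C/EBP-ATF word, NARS1, for asparagine, 7.20-fold, LARS1, for leucine, 5.18-fold with the ZNF143 word, and RARS2, the mitochondrial enzyme for arginine, 4.56-fold. In none of the 5 did the gene have an antibody 1 peak at another start.

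The genes of zinc finger proteins with a ZNF symbol, most of them transcriptional repressors, gave 36 of 515 (6.99%, median 6.19-fold), with 153 (29.7%) that had a shared and 101 (19.6%) an antibody 1-only promoter peak. The strongest were ZNF205 (58.5-fold), ZNF770 (46.1-fold) and ZNF846 (26.7-fold). A run of them on chromosome 19 was picked out after its values were seen. Of the 16 ZNF genes from ZNF155 to ZNF180, 8 had an antibody 2-only promoter peak, 3 a shared and 1 an antibody 1-only one, and the 8 were of low fold, from 3.81 at ZNF235 to 8.83 at ZNF226. Over all 249 ZNF genes of the chromosome the counts were 19, 82 and 47. Genes of this family are alike in sequence, and how reads were shared among near-identical copies is not given in the sources used here.

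Genes of mitochondria and of cytosolic ribosomes are described together, not by rank of their share. Oxidative phosphorylation symbols gave 7 of 107 (6.54%, median 5.54-fold), led by the complex I assembly factor NDUFAF1 (46.6-fold, ETS core) and the complex I subunit NDUFS4 (15.2-fold), while 42 had a shared peak. Mitochondrial ribosomal proteins gave 5 of 78 (6.41%, median 8.21-fold), among them MRPS34 (54.0-fold, ETS core) and MRPS22 (19.3-fold), against 41 with a shared peak. Mitochondrial carriers and translocases gave 4 of 75 (5.33%), with SLC25A21 at 34.3-fold, TIMM29, of the inner membrane translocase, at 34.1-fold, TOMM22, of the outer membrane translocase, at 5.72-fold and TIMM8B at 3.36-fold, and 27 with a shared peak. Cytosolic ribosomal proteins gave 3 of 73 (4.11%, near the 3.54% over all protein-coding genes), RPS3 (7.90-fold), RPL28 (7.75-fold) and RPL38 (4.36-fold), against 45 with a shared peak.

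Vesicle and lysosome genes gave 9 of 153 (5.88%, median 6.40-fold), of which VPS25 was by far the strongest and RAB39B, a small GTPase of vesicle traffic, followed at 16.4-fold. Splicing genes gave 2 of 76 (2.63%), PRPF18 (13.3-fold) and SNRPD1 (14.1-fold), both with the ETS core, against 46 with a shared peak. Histone genes gave 3 of 93 (3.23%), where H2AC7 and H2BC7 shared 1 peak of 4.40-fold between them and H3-4 had one of 4.00-fold. The amino acid response list gave 2 of 26 (7.69%), TRIB3 and SLC7A11, the latter with an antibody 1-only peak at another place near its starts, and 10 with a shared peak.

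The lists of factor genes were too short to stand apart from the 3.54% over all protein-coding genes. None of the 6 C/EBP genes, the 27 ETS genes, the 25 AP-1 and immediate early genes or the 16 YAP and TEAD genes had one. Among the 27 Sp and KLF genes only KLF10 did (4.90-fold, 553 bp downstream of a start, with a GC box), and this gene also had an antibody 1-only peak. Of the 27 bone and matrix genes, LOX, the enzyme that crosslinks collagen, had one (3.84-fold). Of the 43 genes with a cell cycle ubiquitin ligase symbol, the one found, CDC42SE1 (6.66-fold), is by function no ligase gene. Of 112 small RNA host genes SNHG18 (5.80-fold) and SNHG28 (6.08-fold) had one. These host genes were listed whatever their gene type, so the 3.54% is no background for them.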

How the data were processed

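ChIP-seq libraries of U-2 OS cells were made with Sp1 antibody 1, Sp1 antibody 2, normal rabbit IgG (1 each) and CTCF (2 replicates). Inputs were not analysed here. The authors trimmed reads (the submitters' processing notes name cutadapt 2.6), aligned them to hg38 (Bowtie2 2.4.5), removed duplicates (SAMtools 1.15.1) and called peaks per library (MACS2 2.2.7.1). The study's methods describe a liberal p-value cutoff, no local background estimate and merged controls for a reproducibility analysis. They do not say whether the deposited lists were made so, and the lowest −log10 q of antibody 2 peaks was 1.32. The deposited peak lists give fold enrichment as a ratio over background, −log10 p-values and q-values, and a score. They hold no read counts. The paper gives read numbers in its supplement, which were not used here, so depth was not taken into account.

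Peaks were annotated with GENCODE release 44 on hg38. Overlap meant 1 shared bp. Words were searched within 50 bp of summits (numpy 2.4.6, pandas 2.3.3, pysam 0.24.0), and the functions were tested on simulated data. Wilson intervals of 95% cover counting error only. Peaks of 1 library are not replicates, so no test was made. Named genes were the 20 peaks of highest fold, those in the gene lists, the 2 strongest for each main word and those at the limits of the selection, besides NFKBIA, SMAD6 and a run of ZNF genes picked after their values were seen. The members, words and lists were chosen with earlier results of these data known. Alternatives changed the thresholds, windows and words.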

Additional observations from a re-analysis of the deposited data

How the results depend on the processing

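The count of 719 stayed within 1.5 times under each of 7 other settings, from 602 with starts of protein-coding genes only to 976 with summits within 5 kb. Except for CTCF, each share kept its order against the shared promoter peaks in all the alternatives run. The CTCF share, which differed by less than counting error, was above or below that of shared peaks depending on the setting, in 4 and 4 of 8 alternatives. Leaving out a CTCF replicate gave 19.5% to 26.7%, the first inside and the second outside the reported interval. The following other values left the 95% interval of the reported share. With windows of 100 bp either side the GC box share was 33.9%, ETS 38.4% and NF-Y 19.3%. In CpG rich peaks they were 26.1%, 37.1% and 8.00%, with C/EBP at 3.47%. At canonical starts GC box was 23.0%, ETS 31.0% and C/EBP 3.97%. Other words gave 2.92% (GGGGCGGGG), 9.60% (ACTTCCGG), 15.4% (TTGCNNAA) and 44.1% (CGGAA, chosen after seeing the data, against 37.8% of shared windows and 22.5% of canonical starts). With summits within 500 bp, CpG rich peaks were 56.6% and canonical starts 74.1%. CpG rich peaks were 43.5% within 500 bp of the summit and 64.4% at 50% GC and a ratio of 0.6. For CTCF, reciprocal overlap of 50% gave 7.79% and summits within 100 bp gave 6.54%. Antibody 1 peaks lay within 500 bp of 3.06% and within 5 kb of 14.3% of the summits. No paired analysis was possible because each Sp1 antibody has 1 library and CTCF shares replicate numbers only with inputs, which were not analysed here. Peak lists without read depth cannot tell a weak antibody 1 signal from none.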
